A study of Drosophila melanogaster with 3 samples.

Results

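The genes lola, ttk, ab, chinmo, ken, mamo and jim were followed in maps of Bab1 on the genome of adult female Drosophila melanogaster. They were listed by name as genes of BTB zinc finger factors, by a rule that uses no measured value but was written with earlier results of these data known, and all 7 were found among 18164 annotated genes. Per the labels, the flies were of the strain bab1-RA (bab1-s)-GFP, a transgenic line in which the fusion of Bab1 to GFP at its C terminus is stably expressed, and their age is unknown. Sonicated chromatin of whole animals was immunoprecipitated with an antibody against GFP and sequenced (ChIP-seq), in 1 group of 3 biological replicates with no second group. Whole flies mix many tissues, so a site bound in few cells and a weaker site in many cells cannot be told apart, and untagged flies were not analysed here.

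BTB zinc finger factors pair a BTB domain, through which the proteins dimerise, with zinc fingers of the C2H2 type that contact DNA, and many of them are repressors. In flies they are known as switches of cell fate and of developmental timing, and several genes make isoforms that share the BTB part and differ in their zinc fingers. Bab1 itself has a BTB domain, and it binds DNA through a pipsqueak domain in place of zinc fingers. Because nothing was compared between conditions, the values below describe where peaks lay and how far the 3 replicates gave the same picture.

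The name of the group was checked against the annotated coding sequences, read from the genome and translated. The 130 residues at the start of the longest Ttk protein, where its BTB domain lies, aligned with 113 residues of Lola (62.8% identical), 119 of Mamo (56.3%), 119 of Ab (51.3%), 112 of Chinmo (46.4%) and 96 of Ken (32.3%). In Jim the best local alignment covered only 34 residues, at positions 426 to 459, with a score of 46, while the 5 others scored from 100 (Ken) to 390 (Lola). All Jim proteins held 8 or 9 matches to the C2H2 pattern, the highest number among the 7 genes. Ken held 3, the Chinmo proteins 2, those of Ttk and of Ab 1 or 2, those of Lola 0 to 2 and those of Mamo 0 to 6. Some annotated proteins of Lola and Mamo thus had no match to this pattern. By this alignment jim is a zinc finger gene for which no BTB domain was found, so it is kept here as a listed gene only. Counts without it stand in the closing section.

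Peaks were taken from 5 deposited lists. Those of the 3 replicates and of their pool each held 30000 peaks. The last was the authors' list thresholded by the irreproducible discovery rate (IDR). Its 6896 peaks are the 6896 strongest of the pooled list. A pooled peak outside it is therefore weaker, and not necessarily less reproducible. A peak was given to a gene when its summit lay in the gene body or in the 1 kb upstream. The signal values are the authors' and order peaks within a list only, so each is given with its rank, where rank 1 is strongest. The top list of a replicate means its 6896 strongest peaks. Depth is unknown from these lists, so a missing peak means that none was listed, not that binding was absent.

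Of the 7 genes, 5 carried IDR peaks, with 6 at mamo, 4 at lola, 4 at ken, 3 at jim and 2 at ttk, 19 in all. The genes ab and chinmo carried none. Over all genes 37.8% carried an IDR peak, and over the 2623 genes at least as long as the shortest member, ken with 7170 bp, 58.9% did, against 71.4% of the members. The members were long, with a median of 50403 bp against 16241 bp for those 2623 genes. They had a median of 3 IDR peaks per gene against 1, and 3 members had at least 4, as did 9.72% of the long genes. Relative to length, the median was 0.639 IDR peaks per 10 kb at the members and 0.398 over the long genes. The density of IDR peaks was above that of 99.7% of the long genes at ken, 66.9% at ttk and 58.0% at lola. At jim it was above 57.9%, at mamo above 50.5%, and at ab and chinmo above none. The same 5 of the 7 members had a summit in every one of the 3 top lists, as did 28.5% of all genes and 50.1% of the long ones. If only IDR peaks in the top lists of the 2 other replicates were kept, peaks remained at 5 members without replicate 1, at 4 without replicate 2 and at 3 without replicate 3, where the same filter over all 3 replicates left 3.

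**Figure D1:**
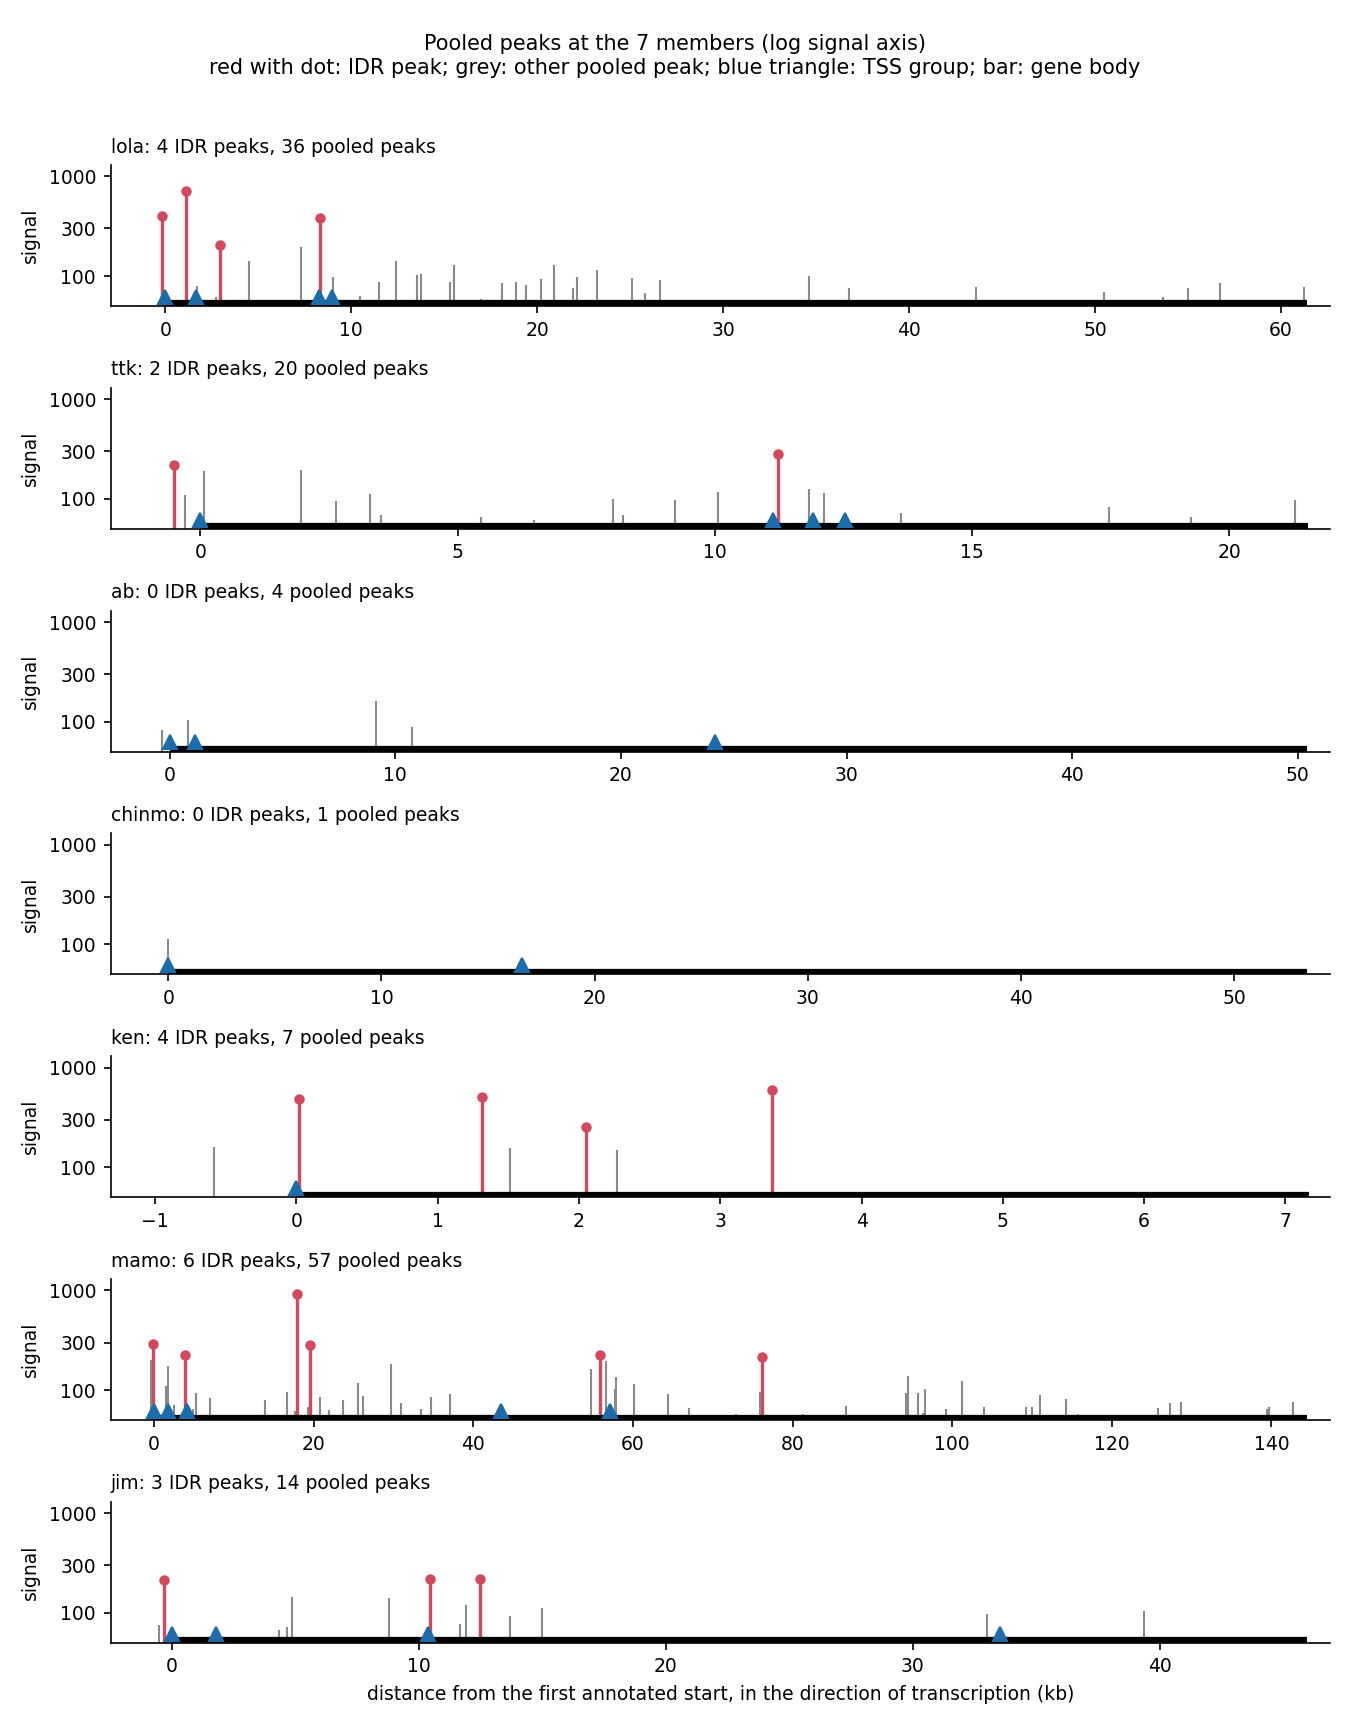
Pooled peaks along the 7 genes, with distance from the first annotated start in kb on the x axis and the authors' signal value on a logarithmic y axis. Red stems with dots are IDR peaks, grey stems are the other pooled peaks, blue triangles are groups of transcription start sites and black bars are gene bodies. The IDR peaks of lola lie in the first part of the gene, those of mamo reach 76116 bp into it, and ab and chinmo have grey stems only.

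The gene ttk (tramtrack, FBgn0003870, dm6 chromosome 3R, 31713867 to 31735392, plus strand) encodes a repressor that keeps cells of the eye and the nervous system from taking neuronal fates. Its 8 annotated transcripts start at 4 places, counted here as groups of starts within 100 bp of each other. Both IDR peaks lay in promoters, defined as 1000 bp upstream to 100 bp downstream of a transcription start site (TSS) of any gene. The first, at 31713259 to 31713449 with rank 6345 in the IDR list, had its summit 513 bp upstream of the first group, from which ttk-RE and ttk-RF start. It had a signal of 114.8 in replicate 1 (rank 2548), 88.1 in replicate 2 (rank 8810) and 47.0 in replicate 3 (rank 8455), so that only replicate 1 had it in the top list. The second, at 31724933 to 31725173 with rank 4340, lay 107 bp past the second group, the start of ttk-RB and ttk-RC. Its signal was 62.7 in replicate 1 (rank 6911), 179 in replicate 2 (rank 2957) and 79.2 in replicate 3 (rank 3635). Replicate 1 missed it in the top list by a few ranks. The replicates therefore differed in which of these ttk promoters, those with an IDR peak, was the stronger. In replicate 3 the strongest ttk peak of all lay at group 3, which had no IDR peak. It stood at 31725554 to 31725929, with a signal of 82.1 and rank 3382.

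The gene mamo (maternal gene required for meiosis, FBgn0267033, chromosome X, 13846116 to 13990527, minus strand) is known for its role in the germ line, where oocytes need it to pass through meiosis. It was the longest member, with 144412 bp, 7 transcripts and 5 groups of starts. Its strongest IDR peak, at 13972440 to 13972784, was also the strongest of all 19, with a signal of 915 and rank 457 of 6896. It lay in the second intron of 5 transcripts, 13836 bp from the nearest TSS. Its signal was 309 in replicate 1 (rank 343), 410 in replicate 2 (rank 581) and 194 in replicate 3 (rank 499). All 3 replicates thus placed it among their strongest peaks.

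The other 5 IDR peaks at mamo were weaker and less evenly found. The one at 13971007 to 13971123, in the same intron, had rank 4345 and was in the top lists of replicates 1 and 2. The peak at 13990557 to 13990724 stood 135 bp upstream of the first start of mamo, that of mamo-RG, and 71 bp from the start of lncRNA:CR44655, a non-coding RNA gene on the opposite strand. Replicate 2 had it with a signal of 180 (rank 2928) and replicate 3 with 95.0 (rank 2524), while no peak of replicate 1 held its summit. It was the only IDR peak of the 19 absent from a whole replicate list. The promoter peak at 13986375 to 13986798, 145 bp upstream of group 3, and the intronic peaks at 13934509 to 13934688 and 13914199 to 13914622 had ranks from 5987 to 6365, in the weakest quartile of the IDR list, and were in 1, 2 and 1 top lists.

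The gene jim (FBgn0027339, chromosome 3L, 22789233 to 22835194, minus strand) had 3 IDR peaks, all weak, with signals from 216 to 221 and ranks from 6175 to 6360. The peak at 22835310 to 22835733 lay 328 bp upstream of the first group of starts, that at 22824549 to 22824972 lay 74 bp past group 3, from which 3 of the 7 transcripts start, and that at 22822616 to 22822826 lay in an intron. At group 3 the signal was 81.9 in replicate 1 (rank 4718), 77.4 in replicate 2 (rank 10316) and 87.3 in replicate 3 (rank 3021). Each of these peaks was in the top lists of 2 replicates. Replicate 2 lacked the first 2 of them in its top list and replicate 1 lacked the intronic one.

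Sequence at summits was read from dm6 for the summit base and 50 bp on either side. Both windows at ttk and all 3 at jim held GAGAG or its complement CTCTC, the core of the element bound by GAGA factor, the product of the BTB gene Trl. None of the 14 windows at the other 3 genes did. In all, 5 of 19 windows (26.3%) held it, against 11.7% of all IDR windows. Without jim the count was 2 of 16 (12.5%), both at ttk, a share close to that of the list. The windows below show 3 of these 5, because their summits lie outside untranslated exons, with every GAGAG or CTCTC in capitals. The window at the strongest mamo peak and that at its first start follow for contrast. They hold none of the 8 patterns searched and so have no capitals. All are printed as the plus strand of the genome reads.
ttk, upstream of the first group, chr3R:31713304-31713404: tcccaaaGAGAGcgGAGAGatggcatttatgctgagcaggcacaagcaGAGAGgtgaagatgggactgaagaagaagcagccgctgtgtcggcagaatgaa
jim, upstream of the first group, chr3L:22835472-22835572: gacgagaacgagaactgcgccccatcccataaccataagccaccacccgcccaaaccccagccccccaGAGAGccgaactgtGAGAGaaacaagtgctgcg
jim, intron, chr3L:22822674-22822774: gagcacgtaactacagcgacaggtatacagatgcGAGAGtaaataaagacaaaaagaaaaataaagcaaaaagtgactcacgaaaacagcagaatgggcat
mamo, second intron, chrX:13972556-13972656: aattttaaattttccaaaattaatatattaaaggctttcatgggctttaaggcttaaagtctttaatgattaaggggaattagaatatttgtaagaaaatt
mamo, upstream of the first group, chrX:13990612-13990712: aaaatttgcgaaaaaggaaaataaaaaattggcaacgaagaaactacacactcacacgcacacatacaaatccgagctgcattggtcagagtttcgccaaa

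The other patterns were rare in these windows, on either strand. TAATAA, an A/T-rich pattern of the kind Bab proteins are known to bind, was in 2 of 19 windows, both at lola, against 14.8% of all IDR windows. TATATA, another such pattern, was in none, against 7.93%. TATCGATA (the DRE of housekeeping promoters) was in none against 4.41%, GGTCACAC (part of the core promoter element Motif 1) in none against 3.07%, CACGTG (the E-box) in none against 1.25%, TTCNNNGAA (the STAT site) in none against 2.87%, and GGTCCTGC (a site of Ttk itself) in none against 0.0435%. With 19 windows, these shares cannot separate the members from the list. The base composition spanned a wide range, from 22.8% G and C at the strongest mamo peak to 60.4% upstream of jim, with a median of 46.5% against 38.6% for all IDR windows. In promoter windows the median was 51.5% at the members and 39.6% over the list, and in intron windows it was 38.6% and 34.7%.

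Where the peaks lay relative to the coding parts of the members was alike in 4 of the 5 genes. At lola, ttk, mamo and jim every IDR summit stood upstream of the first coding base of every annotated transcript, and ken was the exception. Over the 5 genes this held for 16 of 19 peaks (84.2%), against 65.3% of IDR summits at all protein-coding genes at least as long as ken. By class, 10 of the 19 summits lay in promoters (52.6%, against 72.7% of all IDR summits) and the other 9 in introns (47.4%, against 19.1%). These shares by class were not matched for gene length. The members were long (median 50403 bp, against 16241 bp for the genes at least as long as ken), so they describe the members' peaks only. If peaks had to be in the top lists of the 2 other replicates, 6 promoter summits remained without replicate 1, 6 without replicate 2 and 4 without replicate 3, and over all 3 replicates 4 did.

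The gene lola (longitudinals lacking, FBgn0283521, chromosome 2R, 10481894 to 10543291, minus strand) guides growing axons and is known for its many isoforms, which splice a shared BTB part to different zinc finger exons. The annotation gives 24 transcripts with 20 distinct proteins, and 4 groups of starts. All 4 IDR peaks lay within 8335 bp of the first start and upstream of the first coding base of every transcript. The strongest, at 10542012 to 10542315 with rank 761, stood 494 bp upstream of the second group, from which 8 transcripts start, and inside the first intron of the 2 transcripts of the first group. Its signal was 149 in replicate 1 (rank 1503), 479 in replicate 2 (rank 414) and 105 in replicate 3 (rank 2023). Replicate 2 ranked it highest.

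The start of the first lola group had a peak at 10543342 to 10543598 (rank 2250), 181 bp upstream of lola-RAA and lola-RR. Group 3, the start of 11 transcripts, had a peak at 10534815 to 10535151 (rank 2459), 76 bp past the start. There the signal was 153 in replicate 1 (rank 1403), 123 in replicate 2 (rank 5595) and 121 in replicate 3 (rank 1462), so replicate 2 now ranked it lowest. These 3 lola peaks were in all 3 top lists. The last, at 10540138 to 10540561, was an intronic peak near the end of the list (rank 6752) that only replicate 3 had in its top list. Its nearest TSS, 1245 bp away, was that of asRNA:CR45135, an antisense RNA gene.

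The gene ken (ken and barbie, FBgn0011236, chromosome 2R, 23870273 to 23877442, plus strand) is needed for the genital structures and represses some targets of the JAK/STAT pathway. With 7170 bp, 1 transcript and 1 start, it was the smallest member. Its 4 IDR peaks filled the first 3367 bp, with 1 at the start and 3 in the first intron, past the first coding base. The peak at the start, at 23870170 to 23870453, had a signal of 143 in replicate 1 (rank 1619), 233 in replicate 2 (rank 1755) and 115.4 in replicate 3 (rank 1628). The 3 replicates gave it nearly the same rank. The strongest ken peak, in the intron at 23873452 to 23873798 (rank 1025), had a signal of 172 in replicate 1 (rank 1111), 321 in replicate 2 (rank 923) and 114 in replicate 3 (rank 1664). The intronic peak at 23871479 to 23871812 (rank 1368) was likewise in all 3 top lists, and that at 23872107 to 23872530 (rank 5058) was not in the top list of replicate 2. The density at ken, 4.90 IDR peaks per 10 kb, was above that of 99.7% of genes at least as long, of which ken is by construction the shortest.

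Over the 19 IDR peaks, 7 stood in every top list (36.8%, against 57% of all IDR peaks), 8 in exactly 2 and 4 in exactly 1. These 7 were 3 at lola, 3 at ken and the strongest at mamo. The IDR list was made from the same replicates, so these shares describe it. A top list of replicate 1 held 14 of the 19 summits, of replicate 2 held 11 and of replicate 3 held 16, a mean of 71.9% ± 13.2 (SD, n = 3) against 81.0% ± 4.39 for all IDR summits. Replicate 2 held the fewest of the members' summits and the most of all IDR summits (85.7%). In whole replicate lists, 18 of the 19 were found in all 3, against 90.8% of the IDR list. The members' peaks were mostly weak, with a median rank of 4345 against 3448.5 and with 8 of 19 in the weakest quartile and 5 in the strongest. If only peaks in the top lists of the 2 other replicates were kept, 10 remained without replicate 1, 11 without replicate 2 and 8 without replicate 3, set against the 7 found in every top list.

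**Figure D2:**
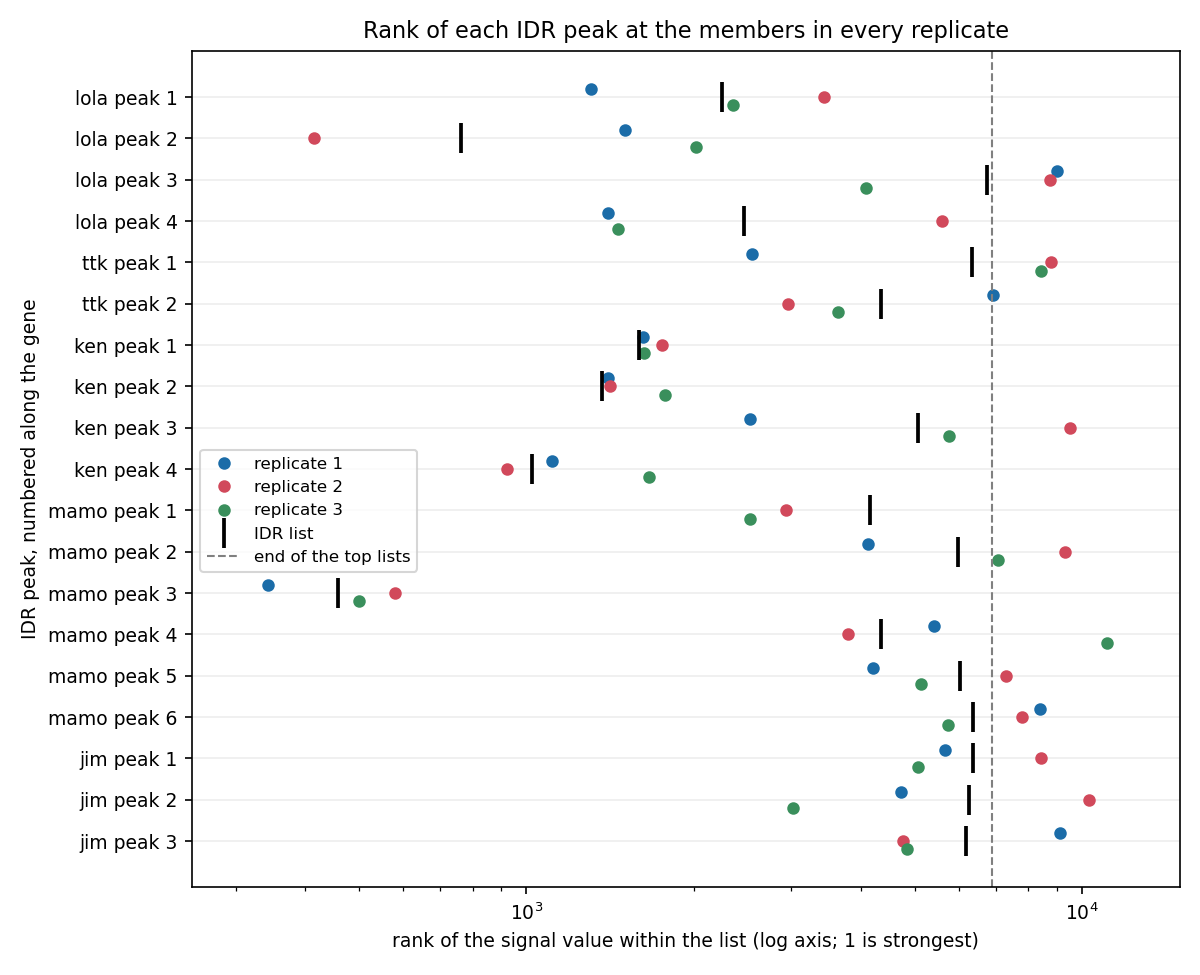
Rank of each of the 19 IDR peaks in the list of each replicate (dots) and in the IDR list (black ticks), on a logarithmic x axis where lower is stronger, with the end of the top lists at 6896 as a dashed line. Peaks are numbered along each gene. The dots of the strongest mamo peak (ranks 343 to 581) lie close together and far to the left, those of ttk, jim and most mamo peaks fall on both sides of the dashed line, and mamo peak 1 has no dot for replicate 1.

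By alternative start, 7 of the 23 groups at the members had an IDR summit within 250 bp (30.4%), against 26.1% of all 23281 groups. Over genes with several groups the shares were 6 of 22 (27.3%) and 29.1%. The members' starts thus carried peaks about as often as others. The groups with a peak were groups 1 and 3 of lola, group 2 of ttk, the only one of ken, groups 1 and 3 of mamo, and group 3 of jim. Over genes with several groups, the first group had a peak in 38.0% and later ones in 23.1%. At the members these were 2 of 6 first groups and 4 of 16 later ones. Summits in all 3 top lists stood at 3 groups (13.0%, against 16.8% of all groups), groups 1 and 3 of lola and that of ken. If the IDR peak had only to be in the top lists of the 2 other replicates, 5 groups had one without replicate 1, 4 without replicate 2 and 3 without replicate 3.

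**Figure D3:**
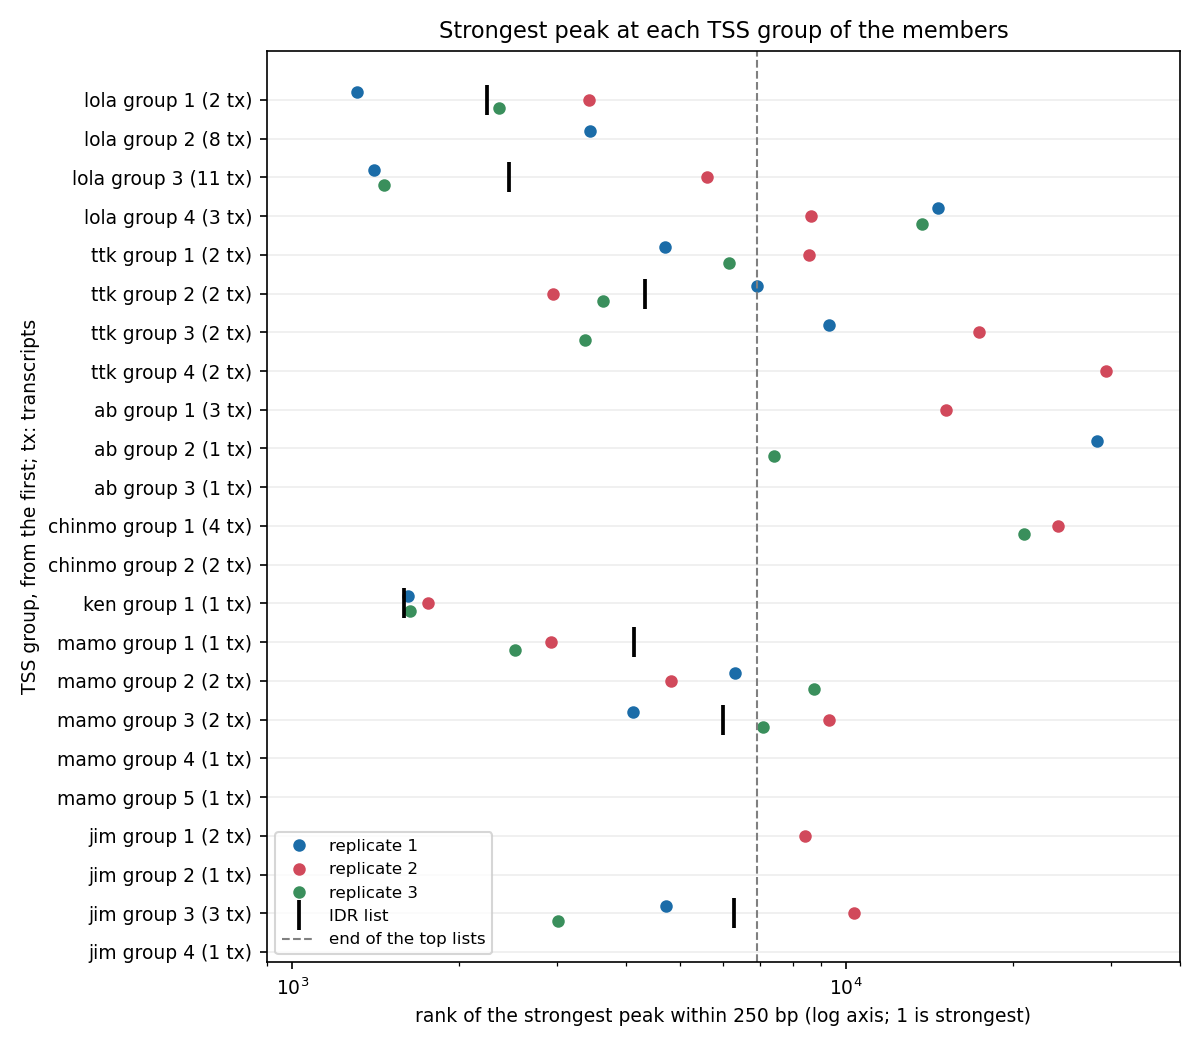
Rank of the strongest peak within 250 bp of each of the 23 groups of starts, in each replicate (dots) and in the IDR list (black ticks), on a logarithmic x axis where lower is stronger. Groups are ordered from the first start of each gene, with the number of transcripts in brackets. The only start of ken and groups 1 and 3 of lola have all 3 dots left of the dashed end of the top lists, and 6 groups have no dot at all.

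Starts without an IDR peak within 250 bp were not all alike. At the first ttk group a peak within 250 bp had rank 4708 in replicate 1, 8551 in replicate 2 and 6152 in replicate 3, and rank 7446 in the pooled list, not far below the last IDR rank. The second mamo group had ranks 6295, 4827 and 8735 in replicates 1 to 3. In contrast, no list had a peak at groups 4 and 5 of mamo, groups 2 and 4 of jim, group 3 of ab or group 2 of chinmo. The second lola group had a peak in replicate 1 (rank 3446) and none within 250 bp in the other replicates. The summit of the strongest replicate 3 peak at lola lay just past that distance, upstream of this group. That peak, at 10541757 to 10542132, had a signal of 136 and rank 1127.

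The genes ab and chinmo had fewer peaks than the other 5 in every list. The gene ab (abrupt, FBgn0264442, chromosome 2L, 11210678 to 11261080, plus strand) is known for its role in motor neuron targeting and in the shape of dendrites. The pooled list held 4 peaks there, and the replicates held 3, 4 and 5. The strongest lay 9155 bp past the first start, at 11219621 to 11220044, with rank 9214 in the pooled list. Peaks at that place had a signal of 40.6 in replicate 1 (rank 11722), 68.1 in replicate 2 (rank 11964) and 56.7 in replicate 3 (rank 6420). Replicate 3 alone had it in the top list, and this was the only top-list peak at ab.

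The gene chinmo (FBgn0086758, chromosome 2L, 1651258 to 1704682, plus strand) sets the temporal identity of neurons born early in the mushroom body and keeps the male identity of somatic stem cells in the testis. It had 1 pooled peak, 4 bp past its first start, with a signal of 114 and rank 13370. At that start replicate 2 had a peak of signal 37.3 (rank 24072) and replicate 3 one of 24.0 (rank 20914), while replicate 1 had none there. No replicate had a chinmo peak in its top list. Among the 7 genes chinmo had the fewest peaks in the pooled list and in each whole replicate list, while in the IDR list and the top lists of replicates 1 and 2 both chinmo and ab had none.

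Pooled peaks, which include the IDR peaks, were dense at some members. The pooled list held 139 peaks at the 7 genes, of which 57 were at mamo, 36 at lola and 20 at ttk, and 7.85% of the 2623 long genes had 20 or more. The median was 14 pooled peaks per member and 4 per long gene. Per 10 kb, ttk had 8.88, ken 8.57, lola 5.77, mamo 3.92, jim 2.98, ab 0.778 and chinmo 0.184, where the median over long genes was 2.67. The density at ttk was above that of 95.8% of the long genes, at ken above 94.8% and at lola above 79.1%, while at ab it was above 26.7% and at chinmo above 18.4%. The whole lists of the replicates gave 19.0 ± 1.00 peaks at ttk (SD, n = 3), 35.3 ± 2.52 at lola, 51.0 ± 2.00 at mamo, 8.33 ± 0.577 at ken and 1.67 ± 0.577 at chinmo. Across the 7 genes the means spanned far more than any SD, although gene lengths differ too. This does not hold for every pair of genes, since jim had 11, 16 and 17 peaks in replicates 1 to 3, where ttk had 19, 18 and 20.

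Counted alone, the pooled peaks that are not IDR peaks gave 7.99 per 10 kb at ttk, above 97.6% of the long genes, and 5.13 at lola, above 84.8%. At ken 3 of the 7 pooled peaks were of this kind, or 3.67 per 10 kb, above 71.5%, and the median over long genes was 2.03. These weaker peaks were found in all replicates at the members about as often as elsewhere. Of the 120 pooled peaks at the members that are not IDR peaks, 32 (26.7%) had their summit in a peak of all 3 whole replicate lists, against 30.2% of all 23104 such peaks. At mamo these were 10 of 51, at lola 9 of 32, at ttk 4 of 18 and at jim 5 of 11. At ab 3 of 4 were found in all 3 replicates, and at chinmo the single one was not.

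**Figure D4:**
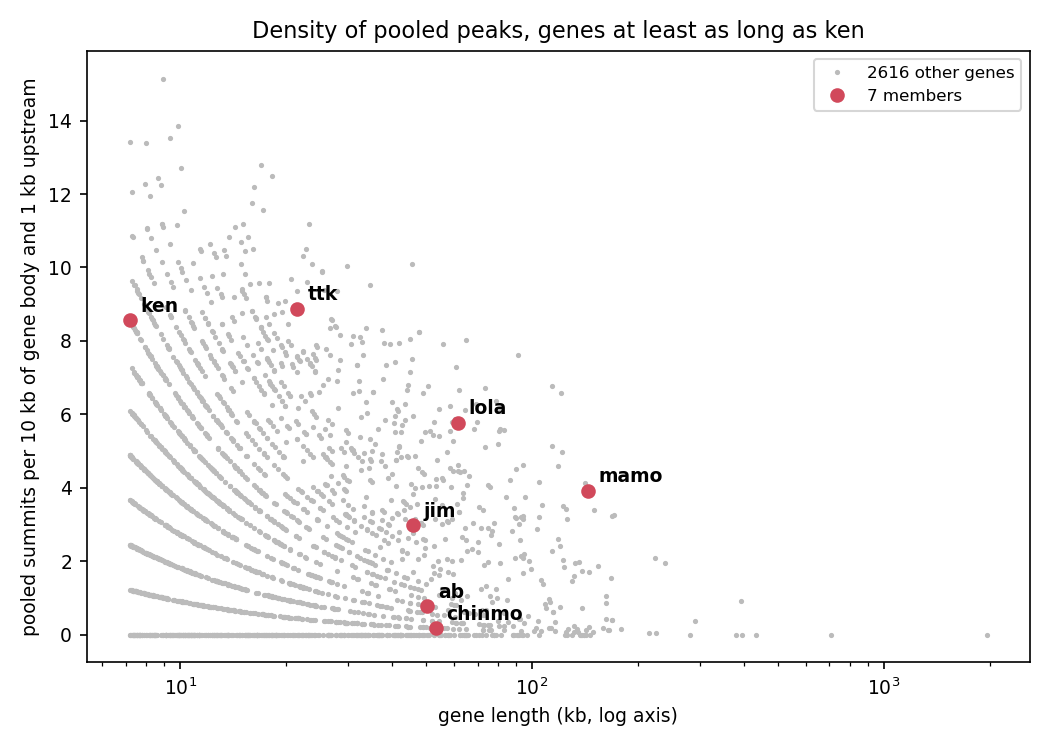
Pooled peaks per 10 kb of gene body and 1 kb upstream (y axis) against gene length in kb on a logarithmic x axis, for the 7 members (red) and the 2616 other genes at least as long as ken (grey). The genes ttk (8.88) and ken (8.57) lie in the upper part of the cloud, and ab (0.778) and chinmo (0.184) near its floor.

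Some genes outside the group had counts close to those of members. With likeness measured as the sum of absolute differences in peak number over the IDR list and the 3 top lists, and ties broken by gene length, the nearest to lola were Hnf4 and pdgy, and to ken Atg18b and Mapmodulin. The nearest to mamo were RapGAP1 and apt, and to jim CG3777 and CG32816. Each differed from its member by 1 peak in all 4 lists together. For ken, 14 genes tied at this distance, and for mamo 4 did. Only members with at least 3 IDR peaks were compared in this way.

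Other BTB factor genes were listed for comparison, and 18 of 19 symbols matched the annotation (pfk did not). Of these, 13 (72.2%) carried an IDR peak, a share close to that of the members (71.4%), against 37.8% of all genes and 58.9% of the long ones. The strongest peaks lay at Trl, the GAGA factor gene (signal 1936, rank 88, intron), Cp190, an insulator protein gene (1770, promoter, with CG4338 nearest), CG3726 (1185, rank 263, intron, with the start of CG12728 nearest, 9807 bp away) and psq, the pipsqueak gene (1097, rank 314, intron). Every replicate held these 4 peaks in its top list, and they ranked above the strongest peak of any member. The pipsqueak gene had 9 IDR peaks, Trl and CG3726 6 each. No IDR peak lay at rib, bab2, lov, CG6765 or CG32121. With gene bodies alone, without the 1 kb upstream, 8 of the 18 genes had a peak, whereas the members with a peak were 5 as before. When each peak was given to the gene of its nearest TSS, 9 of the 18 had one, and the members with one again numbered 5.

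Genes known to act with the members were listed as well, and 17 of 18 symbols matched (Sinah did not), of which 12 (70.6%) carried an IDR peak, against 37.8% of all genes and 58.9% of the long ones. The matched genes ranged from 78 bp (mir-let7) to 65426 bp (Eip93F). For ttk, whose protein is degraded in photoreceptor precursors through sina, phyl and ebi, there was a peak at sina (signal 321) and at ebi (432) and none at phyl. For chinmo, the strongest peak was at Syp (3476, rank 21), whose RNA-binding protein lowers Chinmo in late-born neurons, followed by zfh1 (503), a partner in somatic stem cells of the testis. Imp (252), whose RNA-binding protein raises Chinmo, Eip93F (340) and dsx (322) also had one, and tra and mir-let7 had none. For the JAK/STAT pathway, which ken and chinmo are tied to, the transcription factor gene Stat92E (601) and the feedback inhibitor gene Socs36E (494, with CG17681 nearest) had the strongest, the receptor gene dome (341) and the kinase gene hop (238) had weaker ones, and the ligand gene upd1 had none. A peak at robo1 (226), an axon guidance receptor gene, was in 1 top list, as was that at dome, and that at Imp was in 2, while the strongest peak at each of the other 9 genes was in all 3. Dcr-1 had none.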

How the data were processed

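ChIP-seq peak lists in narrowPeak layout on dm6 were used. Per the deposited file listings, peaks of each replicate and of the pooled replicates were called against 1 control, and the IDR list was derived from them. No source used here names the caller, the aligner or the thresholds. The signal values were deposited by the authors and carry no unit. Deposited −log10 q values were left aside, since many peaks share the highest. The 6896 IDR peaks are the 6896 strongest of the pooled list, with the same coordinates.

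Here summits were placed as start plus the deposited offset, in 1-based coordinates. Summits past a peak's end (1 in the IDR list, 3 to 6 in the others) were kept. Genes came from Ensembl release 115 on the same assembly, without transposons, and sequence from the RefSeq release of that assembly. Starts were matched within 250 bp. Python 3.11.15, pandas 2.3.3 and Biopython 1.88 were used, the last for local alignment with BLOSUM62. C2H2 matches followed the spacing of cysteines and histidines. The counting was tested on simulated data, where 200 of 200 genes had the peak count they were made with. With 1 group, no test was run.

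The members and lists were chosen with earlier results of these data known. The text names every member and IDR peak at one, and, of each other list, the 4 genes with the strongest peak, those without a peak and, for the genes that act with members, the rest as well, chosen after their values were seen. Nothing in the labels says whether replicates came from separate cultures. No row was identical between replicate lists (0 shared). Alternatives were each replicate left out, stronger peaks, the pooled list, other gene windows, other overlap rules and other start distances.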

Additional observations from a re-analysis of the deposited data

How the results depend on the processing

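Of 70 values under alternatives, over 9 counts, 45 stayed within 1.5 times the reported count. This share does not measure stability. The members, at most 7, and the matched genes of the other lists, at most 18 and 17, could not rise past that limit. Peak counts with 1 replicate left out were also entered both as peaks at the members and as peaks in all top lists used. With IDR peaks kept only if in all 3 top lists, a base added after the data were seen, 3 members had 7 peaks, 4 in promoters and at 3 groups of starts. Leaving out 1 replicate under this filter, so that 2 top lists were required, gave 3 to 5 members, 8 to 11 peaks, which is also the count in all top lists used, 4 to 6 promoter summits and 3 to 5 groups. These ranges cannot begin below the base, because 2 of the same 3 top lists are a weaker demand than all 3. The members kept depended on the replicate left out. They were lola, ttk, ken, mamo and jim without replicate 1, and the same but for ttk without replicate 2. Without replicate 3 they were lola, ken and mamo. Whether the filter or a replicate lowers the counts was not tested. With the stronger 3448 IDR peaks, 3 members (lola, ken and mamo) kept 7 peaks, 4 of them in promoters and 3 groups of starts with a peak. The pooled list gave 139 peaks at the members, 27 promoter summits and 13 groups. A window of 5 kb on either side gave 31 peaks, gene bodies alone gave 8 other BTB genes with a peak, and whole replicate lists gave 18 peaks in all 3. The counts moved down where fewer peaks were allowed and up where more were, which the settings do by construction. With jim left out, an alternative chosen after the data were seen, 4 of 6 members had 16 IDR peaks, 8 in promoters, 7 in all 3 top lists, at 6 groups of starts, and 2 windows held GAGAG. No paired analysis was possible because there is 1 group. Depth was not given, so the weak end of each list limits what can be said of ab and chinmo.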
